A study of Mus musculus with 28 samples.

Results

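Collagen chain genes were taken as all rows of the deposited tables whose gene symbol is Col, a number, a, and a number, which gave 44 of the 20416 genes in each table. The 44 genes encode chains of 27 collagen types. They comprised 11 genes of fibrillar types, the 6 genes of type 4, the network of basement membranes, and 27 genes of other types. Of the 27, 6 belong to the beaded filaments of type 6, 9 are FACIT chains (which attach to fibril surfaces), 4 are transmembrane chains, 3 form short-chain networks, 2 are multiplexins, 1 forms anchoring fibrils and 2 were left in no such group. Collagens are made as procollagen chains that are hydroxylated and wound into a helix of intertwined chains in the endoplasmic reticulum, trimmed after secretion and cross-linked outside the cell. In liver, hepatic stellate cells and portal fibroblasts are the known sources of the fibrillar chains of scar tissue, endothelial and stellate cells make the type 4 chains, and hepatocytes are known to make type 18.

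Liver polyadenylated RNA was sequenced from male C57BL/6 mice representing 2 models of steatohepatitis without alcohol, a disease of fat storage, inflammation and scarring of the liver. The first set compared 4 livers of mice on a diet without methionine and choline (MCD) with 4 livers on its matched low-fat control diet (CD). The titles of these samples give 4 weeks of diet and another label gives a duration of 5 weeks. In the second set, STAM mice had received streptozotocin, which destroys pancreatic beta cells, on postnatal day 2 and a high-fat diet from week 4 on. Livers were taken at 4 weeks of age, the age given for the start of that diet, and at 10 weeks, with 5 STAM and 5 control (Ctrl) samples each. The Ctrl group is labelled as control diet at both ages, with nothing said of an injection, and STAM samples of both ages are labelled with the high-fat diet. The labels do not say that each sample was a separate mouse, so the p-values refer to spread between samples, which may be technical.

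Levels are CPM, the reads of a gene per megaread (M reads) of its library after scaling within each table, and fold changes are on the log2 scale of CPM with a small prior. Libraries held 16.2 to 25.9 M reads, so that 3 reads, taken as the limit of detection, were at most 0.200 CPM. Albumin, the main hepatocyte transcript, took 3.08 to 11.8% of reads in every library. A change was called where limma's moderated test gave a Benjamini-Hochberg adjusted p under 0.05 over all genes tested (two-sided). After a filter on low mean values, 38 collagen genes were tested in the MCD set, 39 in STAM at 4 weeks and 36 in STAM at 10 weeks. The 6, 5 and 8 genes left out had at most 4 reads in any group, among them Col2a1 of cartilage, Col6a4, Col19a1 and Col26a1 in all 3 sets. Col9a2 and Col10a1 were also left out in the MCD set, Col9a1 at 4 weeks, and Col9a1, Col9a2, Col10a1 and Col11a1 at 10 weeks.

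Per kilobase of counted transcript, Col18a1 stood first among collagen chains in all 6 groups. This gene (chr10:77052179-77166530, minus strand, build mm10) encodes a proteoglycan collagen of the basement membrane zone whose end fragment is endostatin. Col18a1 averaged 62.6 CPM per kilobase in MCD livers and 139 in CD livers. At 4 weeks it averaged 124 in STAM and 137 in Ctrl livers, and at 10 weeks 118 in STAM and 126 in Ctrl livers. It made up 44.2% of all collagen CPM in MCD livers and 64.7% in CD livers, and 49.4% in STAM livers at 10 weeks against 68.9% in Ctrl livers of that age. The chain in second place differed between the groups, being Col4a1 in MCD livers at 11.1 CPM per kilobase and Col5a3 in CD livers at 12.3. In both groups at 4 weeks it was Col3a1, at 27.1 in STAM and 28.9 in Ctrl livers. At 10 weeks it was Col14a1, at 17 in STAM and 7.98 in Ctrl livers.

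**Figure D1:**
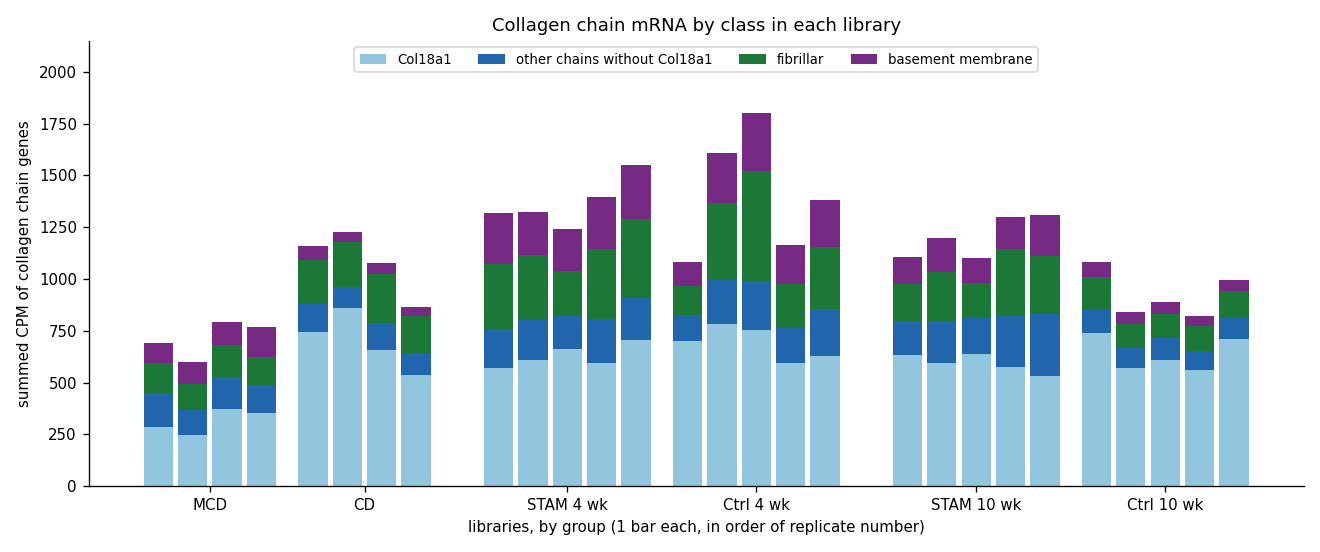
Summed CPM of the 44 collagen chain genes in each library, split into Col18a1, the other chains without Col18a1, fibrillar chains and basement membrane (type 4) chains; each bar is 1 library. The MCD libraries sum to 601 to 794 CPM and the CD libraries to 866 to 1227, with Col18a1 the tallest segment in every bar.

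The MCD comparison asked how collagen transcripts differ after the deficient diet. Among 38 collagen genes tested, 15 rose in MCD livers, 6 fell and 17 were not called. Over all genes tested, 22.6% rose and 20.1% fell, 42.7% in all. Col1a1 was 2.96-fold, Col4a1 2.25-fold and Col6a3 2.52-fold higher in MCD livers, whereas Col27a1, Col5a3, Col20a1, Col6a5 and both multiplexins fell. The median log2 change was 0.73 over the 38 genes, or 0.64 with Col9a1 (4 reads against 0) at the bound its reads allow, beside 0.07 over all genes. Groups did not overlap, with MCD higher, for 13 collagen genes and, with MCD lower, for 5, beside 20.9% and 19.2% of all genes. The collagen sum, with Col18a1 as its largest term, was 715 ± 87 CPM in MCD livers and 1083 ± 157 CPM in CD livers (SD, n = 4 each). Without scaling between libraries the sum was 0.0693 to 0.0946% of reads in MCD livers and 0.0721 to 0.104% in CD livers, ranges that overlapped. In bulk tissue, fewer cells of a type and less RNA per cell cannot be told apart.

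Of the 10 fibrillar genes tested, 5 rose in MCD livers, 2 fell and 3 were not called, beside 22.6% of all genes higher and 20.1% lower. The fibrillar sum was nonetheless lower, at 141 ± 14.4 CPM in MCD livers and 212 ± 22.3 CPM in CD livers (SD, n = 4 each), with Col27a1 and Col5a3 as its members that fell. Its ranges, 124 to 156 CPM in MCD and 182 to 236 CPM in CD livers, did not overlap, but as shares of all reads they did, at 0.0143 to 0.0173% in MCD and 0.0152 to 0.0207% in CD livers; the sum was not tested. Col1a1 (chr11:94936270-94951856, plus strand), the major chain of type 1 fibrils, had 6.64, 4.75, 6.89 and 8.55 CPM in MCD livers, against 2.79, 1.6, 2.76 and 1.94 CPM in CD livers. The groups did not overlap, and Col1a1 rose by 1.57 on the log2 scale (SE 0.24, limma adjusted p = 0.000195). Its partner chain Col1a2 (chr6:4505697-4541543, plus strand) had 22.4, 15.9, 21.9 and 17.9 CPM in MCD livers, against 12.4, 6.87, 11.9 and 7.08 CPM in CD livers. Col1a2 was higher in every MCD library, by 1.07 (SE 0.21, limma adjusted p = 0.00136). Col3a1 (chr1:45311538-45349706, plus strand), which forms the thin reticular fibres of liver, had 56.4, 46.3, 54.1 and 45.4 CPM in MCD livers, against 38.1, 18.9, 33.4 and 21.2 CPM in CD livers. These values did not overlap either, with a rise of 0.91 (limma adjusted p = 0.00412).

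Type 5 chains, which start fibrils and limit their width, differed in direction from each other. Col5a2 (chr1:45374331-45503282, minus strand) had 7.12, 6.64, 6.98 and 7.42 CPM in MCD livers, against 5.23, 3.26, 4.14 and 3.2 CPM in CD livers, and rose by 0.86 (limma adjusted p = 0.00202). Col5a1 (chr2:27886425-28039510, plus strand) had 8.89, 7.45, 9.61 and 9.84 CPM in MCD livers, against 8.33, 7.65, 6.62 and 5.74 CPM in CD livers. Its groups overlapped, and its change of 0.34 was not called (95% interval 0.00 to 0.68, limma adjusted p = 0.0982). Col5a3 (chr9:20770050-20815034, minus strand), the less widespread chain of the type, had 38.1, 35.2, 46.2 and 38 CPM in MCD livers, against 74.6, 82, 82.4 and 59.6 CPM in CD livers. All MCD values lay below all CD values, and Col5a3 fell by 0.92 on the log2 scale (limma adjusted p = 8.32e-05). Over 9 alternative settings of filter, prior, scaling and fit its log2 change ran from -0.92 to -0.49 and stayed called in all.

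Col27a1 (chr4:63215412-63334990, plus strand), a fibrillar chain known from growth plate cartilage, had 7.94, 6.2, 7.96 and 6.5 CPM in MCD livers, against 69.5, 96.4, 93.7 and 83.1 CPM in CD livers. It was 11.9-fold lower in MCD livers, the largest change among the 21 called collagen genes (log2 change -3.58, SE 0.13, limma adjusted p = 3.66e-09). Col11a2 (chr17:34039437-34066242, plus strand), a chain of cartilage fibrils, was low, at 1.26, 0.926, 1.33 and 1.67 CPM in MCD livers, against 0.406, 0.413, 0.883 and 0.134 CPM in CD livers. It rose by 1.72 (limma adjusted p = 0.0118), a call not made with quantile normalization, which gives every library the same distribution of values (1.01, limma adjusted p = 0.0949). The bone chain Col24a1, at 0.685 ± 0.279 CPM in MCD and 0.347 ± 0.206 CPM in CD livers (SD, n = 4 each), was not called.

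The promoter table's windows are shown for 4 fibrillar genes, Col1a2 and Col3a1, which rose in MCD livers, and Col5a3 and Col27a1, which fell. The sequences are the 200 bases before the start site that the RefSeq promoter table gives (build GRCm38.p6), 5′ to 3′ on the gene's strand. The RefSeq gene records of Col27a1 and Col5a3 reach farther upstream than that site, so that all 200 bases of the Col27a1 window and 50 of the Col5a3 window lie inside the gene record, against 0 for Col1a2 and Col3a1. Of the 44 genes, 35 had such a window in the RefSeq table; Col1a1, Col2a1, Col4a3, Col5a2, Col9a3, Col12a1, Col14a1, Col22a1 and Col26a1 had none. Capitals mark CCAAT (bound by NF-Y), GGGCGG (the GC box of Sp1), CAGAC (a core bound by Smad proteins) and TATAAA (the TATA box), searched on both strands, and no matches overlapped in these 4 windows.
Col1a2: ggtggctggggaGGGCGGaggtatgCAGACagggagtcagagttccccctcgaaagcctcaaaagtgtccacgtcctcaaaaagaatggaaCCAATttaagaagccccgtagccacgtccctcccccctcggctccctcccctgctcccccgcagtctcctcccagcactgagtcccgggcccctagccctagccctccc
Col3a1: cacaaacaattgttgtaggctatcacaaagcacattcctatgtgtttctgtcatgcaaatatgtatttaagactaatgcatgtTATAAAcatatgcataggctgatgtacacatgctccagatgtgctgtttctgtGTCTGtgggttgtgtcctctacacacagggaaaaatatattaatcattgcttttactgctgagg
Col5a3: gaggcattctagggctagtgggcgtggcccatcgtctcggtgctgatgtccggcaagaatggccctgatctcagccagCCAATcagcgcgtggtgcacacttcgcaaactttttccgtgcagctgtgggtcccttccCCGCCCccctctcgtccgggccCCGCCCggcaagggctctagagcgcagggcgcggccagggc
Col27a1: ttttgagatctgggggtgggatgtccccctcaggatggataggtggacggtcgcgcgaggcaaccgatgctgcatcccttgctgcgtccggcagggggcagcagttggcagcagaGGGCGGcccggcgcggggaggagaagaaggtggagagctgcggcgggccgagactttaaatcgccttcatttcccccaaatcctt
These windows lie at chr6:4505418-4505617 (plus strand), chr1:45311338-45311537 (plus), chr9:20815068-20815267 (minus) and chr4:63215212-63215411 (plus). The Col1a2 window held 1 match to CCAAT, 1 to GGGCGG and 1 to CAGAC, and that of Col3a1 1 each to CAGAC and TATAAA. The Col5a3 window held 1 CCAAT and 2 GGGCGG matches, and the Col27a1 window 1 GGGCGG match. GGGCGG occurred in the windows of 21 of the 35 genes (60.0%) and in 31.0% of all 32851 promoter windows of the same length. For this and the motifs that follow, a gene counted if any of its windows matched, whereas the share of all windows counts each window singly. The shares are therefore not like for like. CCAAT occurred for 10 of the 35 genes (28.6%) beside 29.3% of all windows, CAGAC for 13 (37.1%) beside 35.5%, and TATAAA for 4 (11.4%) beside 9.96%. A match describes the letters of the window and no binding was measured.

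**Figure D2:**
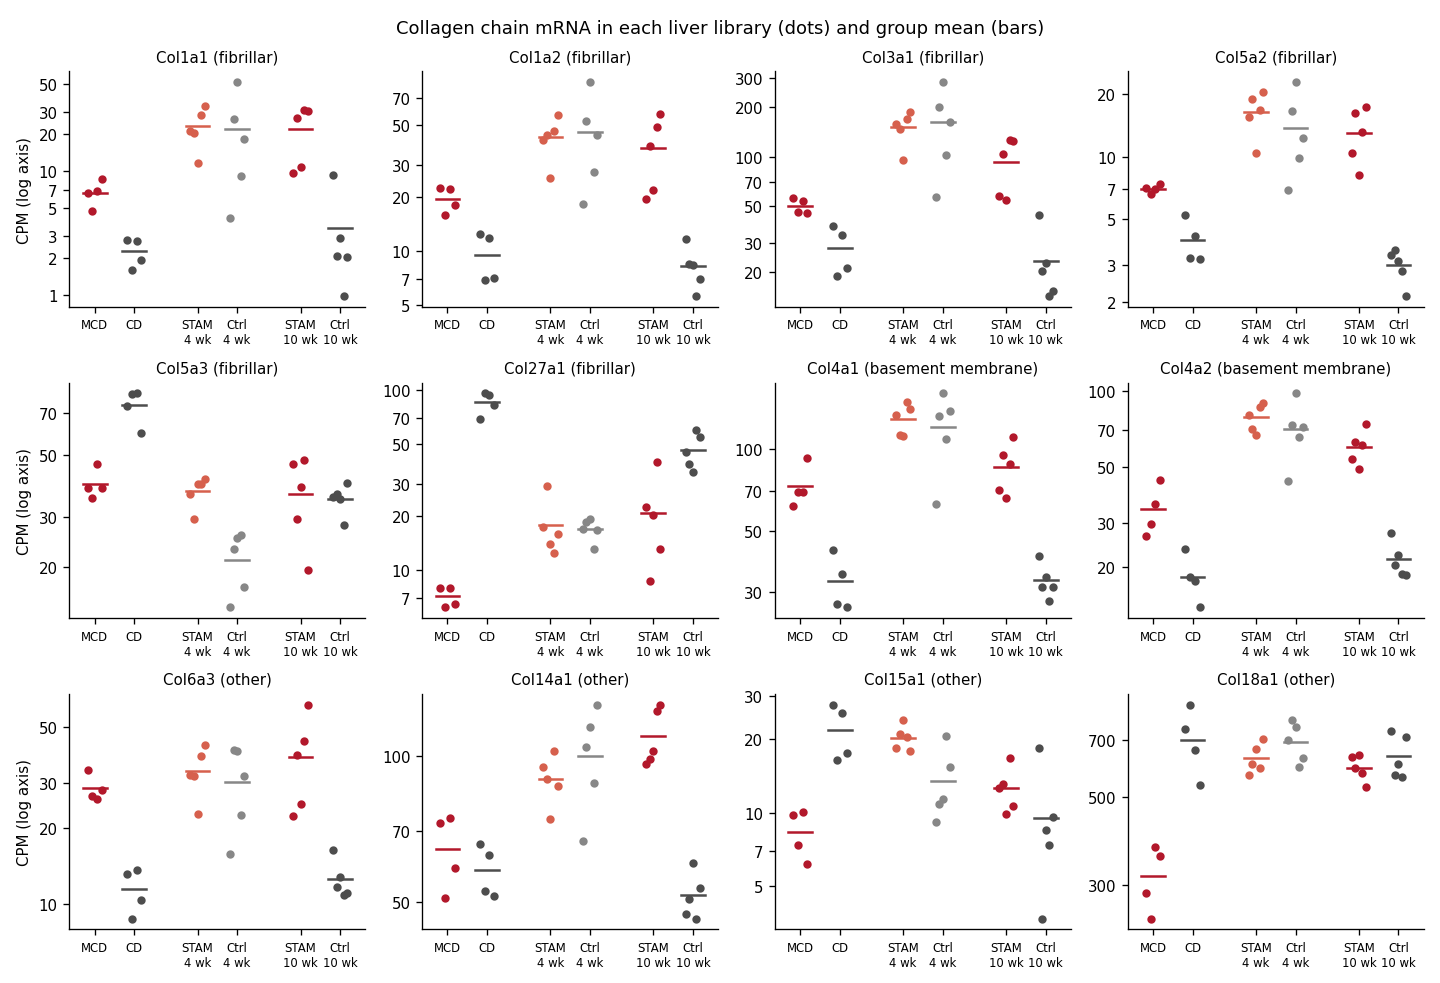
CPM of 12 collagen chain genes in every library (dots, log axis, each panel on its own range), with group means as bars, for MCD and CD and for STAM and Ctrl livers at 4 and 10 weeks. Col27a1, Col5a3, Col15a1 and Col18a1 are lower in all MCD than in all CD libraries, and the Ctrl libraries at 4 weeks spread widely for Col1a1, from 4.19 to 51.9 CPM.

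Of the 6 type 4 genes, 4 rose in MCD livers and none fell, beside 22.6% and 20.1% of all genes. Col4a1 (chr8:11198423-11312826, minus strand), which with Col4a2 forms the network of most basement membranes, had 61.7, 69.7, 69.3 and 92.8 CPM in MCD livers, against 42.8, 27.1, 35 and 26.4 CPM in CD livers. It rose by 1.17 (SE 0.17, limma adjusted p = 0.000142), with no overlap. Col4a2 (chr8:11312805-11449287, plus strand) had 26.7, 29.6, 35.9 and 44.5 CPM in MCD livers, against 23.7, 18.2, 17.6 and 13.9 CPM in CD livers, and rose by 0.89 (limma adjusted p = 0.00176). The 2 genes lie head to head and overlap by 22 bases; the library kit keeps strand, and the sources used here do not say whether counting used it.

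Col4a5 and Col4a6, neighbours 1342 bases apart on chromosome X, encode chains of specialised basement membranes such as that of the kidney. Col4a5 had 5.5, 6.6, 5.34 and 6.1 CPM in MCD livers, against 1.57, 1.5, 1.38 and 1.74 CPM in CD livers. It rose by 1.92 (limma adjusted p = 4.04e-06), with every MCD library above every CD library. Col4a6 was near the detection limit, at 0.433, 1.17, 0.89 and 0.471 CPM in MCD livers, against 0.254, 0.207, 0.607 and 0.134 CPM in CD livers. Its groups overlapped, and its rise of 1.36 had a limma adjusted p of 0.0478. That call was lost without any 1 of CD replicates 1, 2 and 4 and MCD replicates 2 and 3, with log2 changes of 1.07 to 1.77 over all 8 omissions, and also without a filter (limma adjusted p = 0.0517), with voom, a fit that weights the reads recovered from the deposited values (0.0594), and with quantile normalization (0.66, limma adjusted p = 0.328). Col4a3 and Col4a4 of the glomerular network, which averaged 0.548 ± 0.111 and 0.778 ± 0.0971 CPM in MCD livers, were not called. The type 4 sum was 116 ± 20.9 CPM in MCD livers and 54 ± 11.7 CPM in CD livers (SD, n = 4 each).

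Among the other types, 6 of 22 genes tested rose in MCD livers and 4 fell, beside 22.6% and 20.1% of all genes. Col6a3 (chr1:90766860-90843971, minus strand), the long chain of type 6 beaded filaments, had 33.8, 26.7, 26 and 28.1 CPM in MCD livers, against 13.2, 8.79, 13.6 and 10.4 CPM in CD livers. It rose by 1.33 (SE 0.15, limma adjusted p = 2.23e-05). Col6a1 (chr10:76708792-76726044, minus strand), its short partner, had 16, 12, 14.1 and 15.4 CPM in MCD livers, against 9.14, 5.43, 7.83 and 6.34 CPM in CD livers, and rose by 1.02 (limma adjusted p = 0.000465). For both, MCD and CD libraries did not overlap. For Col6a2 the rise was 0.53 (limma adjusted p = 0.0301), and the call was lost without any 1 of CD replicates 2 and 4 and MCD replicates 3 and 4 (log2 change 0.44 to 0.60) and with quantile normalization (0.20, limma adjusted p = 0.379).

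The FACIT chain Col12a1, which bridges fibrils, averaged 10.8 ± 2.08 CPM in MCD livers and 4.2 ± 1.24 CPM in CD livers (SD, n = 4 each), a rise of 1.39 (limma adjusted p = 0.000254). The transmembrane chain Col13a1 averaged 4.29 ± 0.956 CPM in MCD livers and 2.72 ± 0.327 CPM in CD livers. Its rise of 0.64 (limma adjusted p = 0.0215) was lost without CD replicate 4 or MCD replicate 4 (log2 change 0.50 to 0.74) and with quantile normalization (0.28, limma adjusted p = 0.295). Col22a1, a FACIT chain of tissue junctions, had 17 reads over the 4 MCD libraries and 1 read over the 4 CD libraries. Its CPM were 0.236, 0.0805, 0.0445 and 0.251 in MCD livers, against 0, 0, 0.0552 and 0 in CD livers, so that 3 of the 4 MCD libraries lay above the highest CD library. The ratio of its reads was 11.7 with an exact 95% counting interval of 1.84 to 490, and its call (limma adjusted p = 0.0178) was lost without MCD replicate 1 or 4 (log2 change 2.62 to 3.58) and with quantile normalization (2.24, limma adjusted p = 0.0921).

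Col18a1 had 287, 247, 375 and 355 CPM in MCD livers, against 745, 859.9, 659 and 539 CPM in CD livers. The highest MCD library was below the lowest CD library, and Col18a1 fell by 1.15 (SE 0.16, limma adjusted p = 0.000135). Over 9 alternative settings of filter, prior, scaling and fit its log2 change ran from -1.15 to -0.59 and stayed called in all. Col15a1 (chr4:47208012-47313165, plus strand), the other multiplexin, averaged 8.34 ± 1.87 CPM in MCD livers and 21.9 ± 5.68 CPM in CD livers (SD, n = 4 each) and fell by 1.38 (limma adjusted p = 0.000189). Col20a1, a FACIT chain, had 1.3, 0.362, 0.712 and 0.597 CPM in MCD livers, against 3.45, 4.29, 2.48 and 2.54 CPM in CD livers. It fell by 2.20 (limma adjusted p = 0.000347), without overlap. Col6a5, an alternative to Col6a3 in type 6 filaments, had 0.157, 0.161, 0.178 and 0.314 CPM in MCD livers, against 0.863, 0.207, 1.1 and 0.668 CPM in CD livers. Its log2 change of -1.58 (limma adjusted p = 0.0302) lost its call without any 1 of CD replicates 1, 3 and 4 and MCD replicates 1, 2 and 3 (log2 change -2.08 to -1.30).

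The genes not called in the MCD set also included Col11a1, Col6a6, Col7a1 of anchoring fibrils, Col8a1, Col8a2, Col9a1, Col9a3, Col14a1, Col16a1, Col17a1, Col23a1, Col25a1 and Col28a1. Their log2 changes ran from -1.66 for Col25a1 to 1.77 for Col9a1. The value of Col9a1 rests on the prior, because it had 4 reads in MCD and 0 in CD livers. With CD set to 3 reads in total its log2 ratio was -0.12.

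Proteins that process and bind collagen were described from lists chosen with earlier results of these data known. Of 31 genes for processing and cross-linking, 9 rose in MCD livers and 6 fell, beside 22.6% and 20.1% of all genes, which also hold for the lists that follow, with a median log2 change of 0.32. The cross-linking oxidase Loxl2 rose by 1.05 and the procollagen protease Adamts2 by 0.89, whereas the prolyl hydroxylase subunits P4ha1 and P4ha2 fell by 0.87 and 0.65 (limma adjusted p = 0.0129 and 0.0266). Of 10 collagen receptors and uptake proteins, 4 rose and 1 fell, with the receptor kinase Ddr1 at 1.82 (limma adjusted p = 0.000934). Of 10 proteoglycans and fibril partners, 3 rose and 1 fell, with lumican (Lum) at 1.64 (limma adjusted p = 7.45e-06). Of 14 other basement membrane proteins, 7 rose and 2 fell, with nidogen genes apart, Nid1 at 1.24 and Nid2 at -1.33 (limma adjusted p = 2e-06 and 0.00011).

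Some markers of collagen-making and other cells were called and others were not, beside 22.6% of all genes higher and 20.1% lower. The part of these cells in the collagen changes was not tested. Of 10 stellate cell markers, 4 rose in MCD livers and 1 fell, and their sum was 315 to 363 CPM in MCD livers and 278 to 316 CPM in CD livers. Of 8 portal fibroblast markers 3 rose, with sums of 22.4 to 34.1 in MCD and 11 to 21.7 CPM in CD livers, and of 6 myofibroblast markers 2 rose, with sums of 35.1 to 45.2 in MCD and 18.6 to 32.7 CPM in CD livers. Of 6 markers each, 5 rose for cholangiocytes, 3 for macrophages, 2 for vascular endothelium (with 1 lower) and none for sinusoidal endothelium (1 lower). Of 6 hepatocyte markers 4 fell, of 4 smooth muscle markers 1 rose and of 5 mesothelial markers 3 rose. No listed marker was at 0 in all libraries. The deposited scaling multiplied library sizes by 1.11 to 1.23 in MCD and 0.832 to 0.899 in CD libraries. With libraries scaled to total reads, the median of all genes moved up by 0.42. Of the 15312 genes tested 8810 were then called, 86.1% of them higher, against 6541 called and 52.9% higher with the deposited scaling. With total-read scaling 21 collagen genes rose and 5 fell, and Col6a5 lost its call (limma adjusted p = 0.0833). No collagen gene called with the deposited scaling changed direction.

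**Figure D3:**
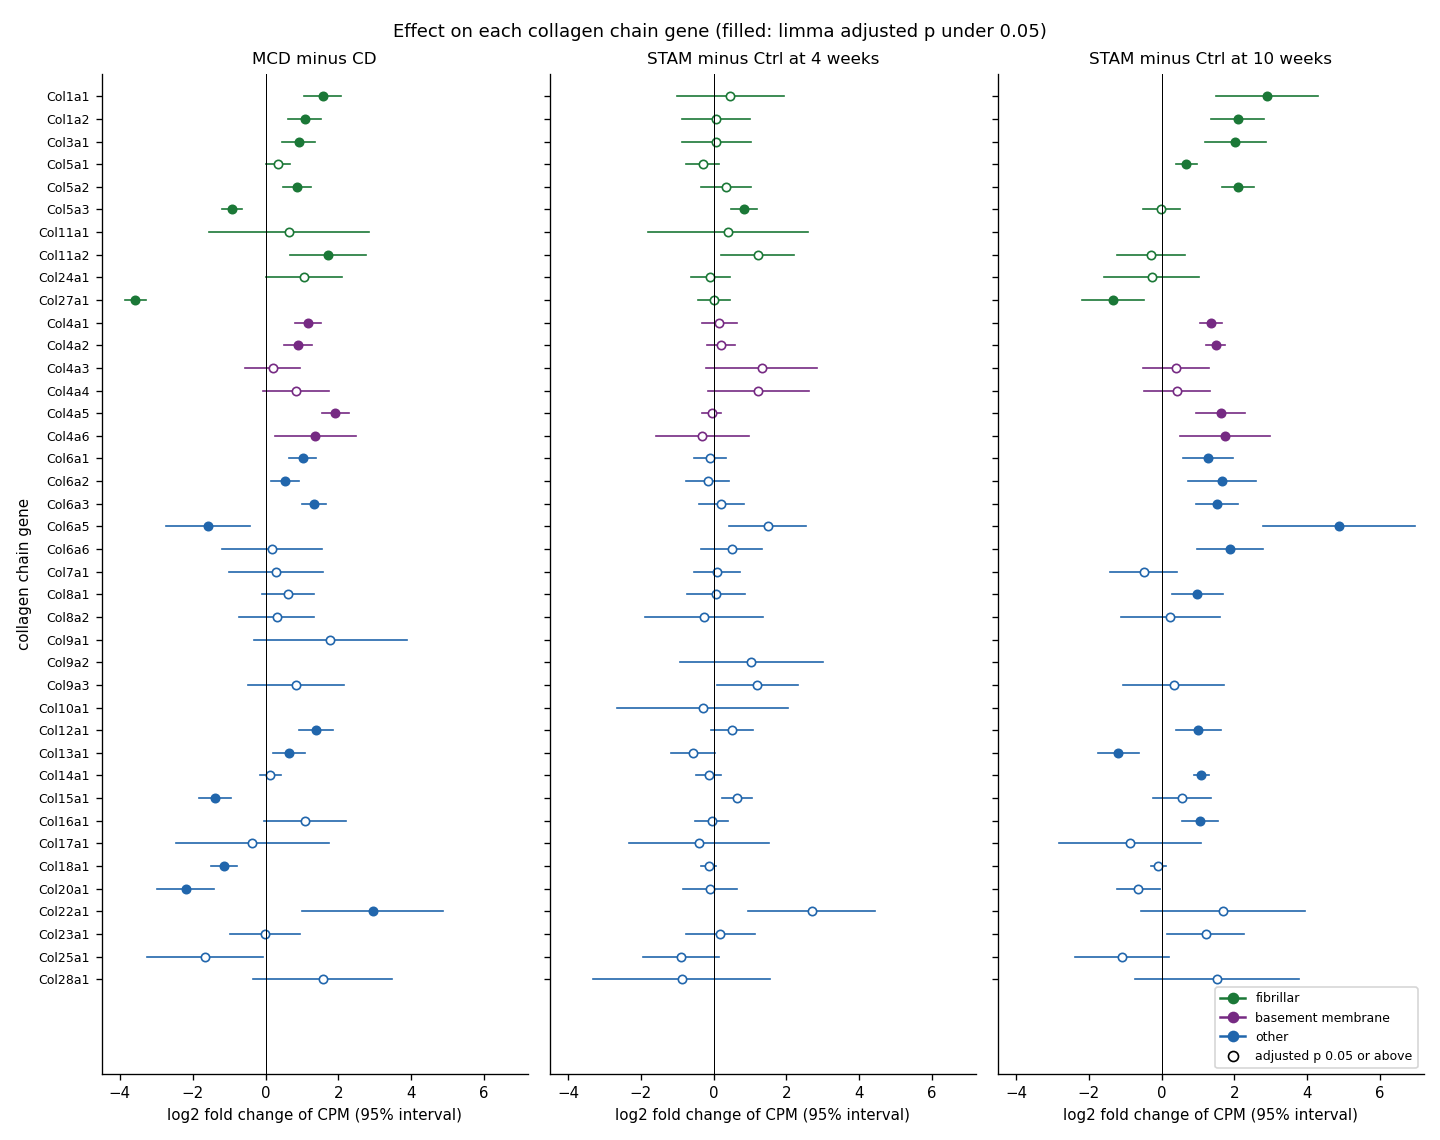
Log2 fold change of every tested collagen chain gene (dots) with its 95% interval (lines), by class, for MCD minus CD, STAM minus Ctrl at 4 weeks and STAM minus Ctrl at 10 weeks; filled dots had a limma adjusted p under 0.05. The left panel has 15 filled dots above 0 and 6 below, the middle panel 1 above, and the right panel 18 above and 2 below.

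At 4 weeks, the comparison set livers after neonatal streptozotocin, at the stated start of the high-fat diet, against control livers of that age. Of 39 collagen genes tested, 1 rose in STAM livers and 0 fell by limma, beside 6.52% and 3.27% of all genes (9.8% in all). At an unadjusted limma p under 0.05, 6 of the 39 would pass. The share of all genes at that threshold was not computed, so this count has no background beside it. Col5a3 had 36.4, 29.6, 39.3, 39.3 and 41 CPM in STAM livers, against 14.4, 23.3, 25.4, 25.9 and 17 CPM in Ctrl livers. All STAM values lay above all Ctrl values, and Col5a3 rose by 0.84 (SE 0.16, limma adjusted p = 0.00743). It was the only collagen gene without overlap, beside 6.38% of all genes higher and 3.67% lower. The count became 2 without Ctrl replicate 1 or STAM replicate 4, which added Col22a1 (3.09 and 3.06), without Ctrl replicate 3, which added Col6a5 (1.86), and without Ctrl replicate 4, which added Col15a1 (0.81). In voom 2 genes rose. The authors' deposited table for 4 weeks calls 3 collagen genes higher in STAM livers. Scaled to total reads, 1650 of 15312 genes were called, 83.7% of them higher, and 3 collagen genes rose. With the deposited scaling 1500 genes were called, 66.6% of them higher.

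The fibrillar chains of scar tissue spread widely among the young Ctrl livers. Col1a1 had 21.1, 20.1, 11.6, 28.4 and 33.1 CPM in STAM livers, against 4.19, 26.3, 51.9, 9.14 and 18.1 CPM in Ctrl livers. The Ctrl range enclosed all STAM values, and the change of 0.46 had a 95% interval of -1.02 to 1.94 (limma adjusted p = 0.746). Col1a2 had 41, 43.7, 25.3, 46.3 and 56.9 CPM in STAM livers, against 18.2, 52.7, 86.1, 27.2 and 43.7 CPM in Ctrl livers. Col3a1 had 158, 147, 95, 169 and 187 CPM in STAM livers, against 56.7, 200.3, 282, 103 and 163 CPM in Ctrl livers. In these chains Ctrl replicate 1 was the lowest and Ctrl replicate 3 the highest of all 10 libraries. Portal fibroblast markers summed to 41.6 to 87.8 CPM in STAM and 15.5 to 146 CPM in Ctrl livers, and their part in this spread was not tested. Of 8 portal fibroblast markers 3 rose in STAM livers, and of 10 stellate cell markers 1 rose and 2 fell, beside 6.52% and 3.27% of all genes.

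Chains of types 5, 4, 6 and 18 were not called at 4 weeks except Col5a3. Col5a1 had 23.8, 20.6, 20.05, 25.1 and 25.2 CPM in STAM livers, against 17.3, 34.6, 42.4, 23.8 and 29 CPM in Ctrl livers. Col5a2 had 15.5, 19, 10.4, 16.8 and 20.5 CPM in STAM livers, against 6.96, 16.7, 22.9, 9.92 and 12.3 CPM in Ctrl livers. Neither was called, at -0.30 and 0.34 on the log2 scale. Col4a1 had 133, 112, 111, 148 and 139 CPM in STAM livers, against 63.1, 132, 159, 108 and 137 CPM in Ctrl livers. Col4a2 had 80.7, 70.6, 67.1, 86.8 and 90.04 CPM in STAM livers, against 44.2, 73.4, 98.3, 65.7 and 72 CPM in Ctrl livers. Their intervals were -0.33 to 0.65 and -0.19 to 0.59. Col6a1 had 13.6, 17.1, 12.5, 18.7 and 19.2 CPM in STAM livers, against 13.5, 22.2, 22.7, 11.4 and 18.6 CPM in Ctrl livers. Col6a3 had 32.3, 32.1, 22.7, 38.4 and 42.5 CPM in STAM livers, against 15.9, 40.6, 40.3, 22.4 and 32 CPM in Ctrl livers. Both overlapped between groups and were not called. Col18a1 had 570.5, 608, 662, 593 and 705 CPM in STAM livers, against 699, 785, 753, 596 and 629.8 CPM in Ctrl livers, with a narrow interval of -0.34 to 0.06.

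Other chains near a call were Col15a1 at 0.64 (limma adjusted p = 0.0532) and Col22a1, with 21 reads over the 5 STAM and 2 over the 5 Ctrl libraries, a ratio of 8.97 with an exact 95% counting interval of 2.19 to 78.9 (limma adjusted p = 0.054). The 38 genes without a call had log2 changes from -0.90 for Col25a1 to 2.69 for Col22a1. Beside the 9.8% of all genes called, 0 of 31 processing and cross-linking genes were called by limma at 4 weeks, and none of the 10 proteoglycans and fibril partners was. Of 14 other basement membrane proteins 3 rose and 1 fell, and of 10 receptors 3 rose, among them Ddr1 by 1.44 (limma adjusted p = 0.00663). Of 6 cholangiocyte markers 4 rose, of 6 macrophage markers 5, of 6 myofibroblast markers 1 and of 6 vascular endothelial markers 1, while 2 of 6 sinusoidal endothelial and 1 of 6 hepatocyte markers fell. No smooth muscle or mesothelial marker was called, of 4 and 5.

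At 10 weeks, after some weeks of high-fat diet, 18 of 36 collagen genes tested rose in STAM livers, 2 fell and 16 were not called. Over all genes, 25.3% rose and 22.5% fell, 47.8% in all. Col1a1 was 7.41-fold, Col1a2 4.25-fold and Col3a1 4.07-fold higher in STAM livers, all 5 tested type 6 genes rose, and Col27a1 and Col13a1 fell. The median log2 change over the 36 genes was 1.03, beside 0.05 over all genes. STAM and Ctrl livers did not overlap for 15 collagen genes that were higher and 1 that was lower in STAM, beside 16.8% and 16.3% of all genes. The collagen sum was 1203 ± 102 CPM in STAM livers and 925 ± 111 CPM in Ctrl livers, and the fibrillar sum 237 ± 66.3 CPM in STAM and 129 ± 18.5 CPM in Ctrl livers (SD, n = 5 each).

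Of the 9 fibrillar genes tested, 5 rose and 1 fell, beside 25.3% and 22.5% of all genes. Col1a1 had 9.59, 26.9, 10.7, 30.9 and 30.4 CPM in STAM livers, against 9.37, 2.09, 2.87, 0.985 and 2.03 CPM in Ctrl livers. Ctrl replicate 1 was close to the lowest STAM library and the other 4 Ctrl libraries were far below, and Col1a1 rose by 2.89 (SE 0.61, limma adjusted p = 0.00426). Col1a2 had 19.3, 38.3, 21.8, 48.9 and 57.4 CPM in STAM livers, against 11.6, 8.5, 8.37, 5.63 and 7.01 CPM in Ctrl livers, and rose by 2.09 (limma adjusted p = 0.000608). Col3a1 had 58.2, 103, 54.9, 125 and 125 CPM in STAM livers, against 44.6, 20.4, 22.8, 14.4 and 15.4 CPM in Ctrl livers, and rose by 2.03 (limma adjusted p = 0.00201). STAM replicates 1 and 3 were the lowest of the STAM group for all 3 genes and still lay above all Ctrl libraries. Col1a2 and Col3a1, whose upstream windows are printed with the MCD results, rose in both models.

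Col5a2 had 10.5, 16.2, 8.18, 13.1 and 17.4 CPM in STAM livers, against 3.37, 3.55, 3.16, 2.81 and 2.13 CPM in Ctrl livers. It was 4.25-fold higher in STAM livers (log2 change 2.09, SE 0.21, limma adjusted p = 6.13e-06). Its partner Col5a1 had 10.2, 14.4, 11.1, 14.6 and 16.1 CPM in STAM livers, against 9.83, 7.67, 7.85, 7.08 and 8.63 CPM in Ctrl livers, and rose by 0.68 (limma adjusted p = 0.00118). Both pairs of groups were separate. Col5a3, the chain that rose at 4 weeks, averaged 36.3 ± 11.9 CPM in STAM and 34.9 ± 4.2 CPM in Ctrl livers (SD, n = 5 each), with a log2 interval of -0.51 to 0.50. Col27a1 had 22.3, 8.73, 20.1, 39.9 and 13.1 CPM in STAM livers, against 45.2, 38.8, 35.3, 60.3 and 54.9 CPM in Ctrl livers. Only STAM replicate 4 lay within the Ctrl range, and Col27a1 fell by 1.33 (limma adjusted p = 0.0172).

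Of the 6 type 4 genes, the same 4 genes rose as in MCD livers, beside 25.3% of all genes. Col4a1 had 70.5, 94.6, 66.1, 87.7 and 111 CPM in STAM livers, against 40.7, 31.2, 34.1, 27.9 and 31.3 CPM in Ctrl livers, and rose by 1.36 (limma adjusted p = 1.22e-05). Col4a2 had 53.8, 62.9, 49.4, 61.4 and 74.3 CPM in STAM livers, against 27.5, 20.4, 22.4, 18.9 and 18.7 CPM in Ctrl livers, and rose by 1.48 (limma adjusted p = 1.9e-06). In both, the lowest STAM library exceeded the highest Ctrl library. Col4a5 had 2.65, 4.59, 2.97, 4.4 and 9.82 CPM in STAM livers, against 2.11, 1.31, 1.44, 1.22 and 1.12 CPM in Ctrl livers, and rose by 1.63 (limma adjusted p = 0.000958). Col4a6 had 0.299, 0.364, 0.261, 0.346 and 1.19 CPM in STAM livers, against 0.132, 0.243, 0.239, 0.0469 and 0.0508 CPM in Ctrl livers. Ctrl replicates 1, 4 and 5 lay below the limit of 3 reads, which was 0.198, 0.141 and 0.152 CPM in these libraries. The groups were parted only narrowly, at 0.261 CPM in the lowest STAM and 0.243 CPM in the highest Ctrl library. The Col4a6 rise of 1.73 (limma adjusted p = 0.0233) was lost without Ctrl replicate 4 or 5 or STAM replicate 5 (log2 change 1.35 to 1.98). It was also lost with quantile normalization (0.74, limma adjusted p = 0.295).

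All 5 tested chains of type 6 rose at 10 weeks, beside 25.3% of all genes. Col6a1 had 11, 21.1, 13.1, 22.4 and 41.4 CPM in STAM livers, against 8.71, 8.45, 8.47, 7.22 and 7.62 CPM in Ctrl livers, and rose by 1.27 (limma adjusted p = 0.00629). Col6a2 had 5.08, 10.5, 5.84, 12.8 and 23.6 CPM in STAM livers, against 5.68, 2.62, 3.49, 2.11 and 2.69 CPM in Ctrl livers, and rose by 1.66 (limma adjusted p = 0.00861). Col6a3 had 22.2, 38.7, 24.9, 43.9 and 61.5 CPM in STAM livers, against 16.4, 11.7, 12.8, 10.9 and 11.1 CPM in Ctrl livers, and rose by 1.52 (limma adjusted p = 0.000958). STAM replicate 5 was the highest library for each of them, and the groups overlapped for Col6a2 only. Col6a5 (chr9:105856070-105960643, minus strand) had 2.24, 2.59, 1.56, 3.76 and 5.63 CPM in STAM livers, against 0.264, 0.777, 0.0479, 0.0469 and 0 CPM in Ctrl livers. The 5 STAM libraries held 355 of its reads and the 5 Ctrl libraries 22, and the log2 change was 4.87 (SE 0.95, limma adjusted p = 0.00164). The size of this rise rests in part on the prior, because some Ctrl libraries held few or no reads. Over 8 alternative settings of filter, prior, scaling and fit it ran from 3.70 to 5.12. The authors' deposited log2 fold change of Col6a5 was 3.77. Its neighbour Col6a6 had 1.79, 1.41, 1.36, 2.42 and 2.09 CPM in STAM livers, against 1.06, 0.729, 0.383, 0.516 and 0.152 CPM in Ctrl livers, and rose by 1.87 (limma adjusted p = 0.00274).

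The FACIT chain Col14a1 (chr15:55307750-55520803, plus strand), which binds fibril surfaces, had 96, 98.6, 102, 124 and 128 CPM in STAM livers, against 47.1, 50.7, 60.1, 46.1 and 53.4 CPM in Ctrl livers. All STAM libraries were higher, and Col14a1 rose by 1.09 (SE 0.10, limma adjusted p = 2.83e-06). Col12a1 rose by 1.01 and Col16a1, another FACIT chain, by 1.06 (limma adjusted p = 0.0123 and 0.00204). With quantile normalization neither was called, Col12a1 at 0.75 (limma adjusted p = 0.055) and Col16a1 at 0.47 (limma adjusted p = 0.103). For Col8a1, a short-chain collagen of vessel walls, the rise was 0.98 (limma adjusted p = 0.0248), and the call was lost without Ctrl replicate 3 or STAM replicate 4 (log2 change 0.75 to 1.14) and with quantile normalization (0.20, limma adjusted p = 0.688). The transmembrane chain Col13a1 (chr10:61838234-61979108, minus strand) had 2.84, 2.09, 1.67, 0.94 and 2.09 CPM in STAM livers, against 3.43, 5.1, 3.16, 4.64 and 4.72 CPM in Ctrl livers. It fell by 1.19 (limma adjusted p = 0.0023), without overlap. Col18a1 had 634, 593, 639, 576 and 531 CPM in STAM livers, against 737, 571, 607, 563 and 709 CPM in Ctrl livers. These overlapped, with a log2 interval of -0.30 to 0.11, and Col15a1 was not called either at 0.57. The others without a call were Col4a3, Col4a4, Col11a2, Col24a1, Col7a1, Col8a2, Col9a3, Col17a1, Col20a1, Col22a1, Col23a1, Col25a1 and Col28a1. Col22a1 had 11 reads over the STAM and 0 over the Ctrl libraries, at least 3.21-fold higher when Ctrl is set to 3 reads in total, and Col25a1 had the lowest log2 change of these genes at -1.10.

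Of 31 processing and cross-linking genes, 18 rose at 10 weeks and 4 fell, beside 25.3% and 22.5% of all genes, which also hold for the next lists. The procollagen proteases Adamts2 and Tll1 rose by 1.59 and 3.60, the cross-linking oxidases Lox and Loxl1 by 2.27 and 1.97, and the collagen chaperone Serpinh1 by 0.62 (limma adjusted p = 0.0362). P4ha1 and P4ha2 fell by 0.70 and 0.87 (limma adjusted p = 0.000167 and 0.000414). Of 9 receptors tested 6 rose, with Ddr1 at 2.44 (limma adjusted p = 8.74e-06), and of 10 proteoglycans and fibril partners 7 rose, with Lum at 1.43 (limma adjusted p = 0.00218). Of 14 other basement membrane proteins 11 rose and 1 fell, with laminin chain Lama5 at 1.61 and Nid2 at -0.48 (limma adjusted p = 0.000478 and 0.00833).

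Beside these changes, 7 of 8 portal fibroblast markers rose, and their sum was 24.3 to 46.6 CPM in STAM livers and 8.16 to 12.7 CPM in Ctrl livers. Of 10 stellate cell markers 4 rose and 2 fell, with sums of 316 to 426 in STAM and 256 to 384 CPM in Ctrl livers. Myofibroblast markers, 3 of 6 higher, summed to 24.5 to 40.9 CPM in STAM and 12.5 to 29.7 CPM in Ctrl livers. Of 6 markers each, 5 rose for vascular endothelium, 5 for cholangiocytes, 4 for macrophages and 2 for sinusoidal endothelium (1 lower), while 5 of 6 hepatocyte markers fell. Of 4 smooth muscle markers 2 rose, and of 5 mesothelial markers none was called. No listed marker was at 0 in all libraries, and the part of these cells in the collagen changes was not tested. Scaled to total reads, the median of all genes moved up by 0.29, and 19 collagen genes rose and 2 fell. Of the 15312 genes tested 7972 were then called, 88.0% of them higher, against 7319 called and 53.0% higher with the deposited scaling.

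A direct test of the STAM effect at 10 weeks minus that at 4 weeks found 13 of 36 collagen genes higher and 1 lower, beside 8.89% and 11.2% of all genes. The type 4 chains Col4a1 and Col4a2 differed by 1.20 and 1.29 on the log2 scale (limma adjusted p = 0.00542 and 0.00085), and Col4a5 by 1.68. Among fibrillar chains Col1a2, Col3a1, Col5a1 and Col5a2 differed by 2.03, 1.95, 0.98 and 1.75. Col1a1 differed by 2.43 without a call (limma adjusted p = 0.0705); it was called without Ctrl replicate 1 at 10 weeks (2.90) or Ctrl replicate 1 at 4 weeks (2.91). Col14a1 differed by 1.22 (limma adjusted p = 0.000287), with log2 effects of 1.09 at 10 weeks and -0.14 at 4 weeks. Col6a1, Col6a2 and Col16a1 were also higher, by 1.37, 1.82 and 1.11, of which Col16a1 was not called with quantile normalization (0.68, limma adjusted p = 0.116). Scaled to total reads, the median difference of all genes moved up by 0.21, and 14 collagen genes were higher and 0 lower. Of the 15022 genes tested 3437 were then called, 84.3% of them higher. As shares of all reads, fibrillar chains averaged 0.0303% in Ctrl livers at 4 weeks and 0.0117% at 10 weeks. In STAM livers they averaged 0.0321% and 0.0264%, and the ranges at both ages overlapped within each group. A larger STAM effect at 10 weeks thus does not mean that levels in STAM livers rose with age. Levels were not tested between ages.

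The calls of Col6a3, Col27a1 and Col6a5 in this test depended on the libraries used. The size of the Col6a5 difference also rests in part on Ctrl libraries at 10 weeks with few or no reads. Col6a3 differed by 1.31, a call lost without Ctrl replicate 2 or 3 or STAM replicate 3 at 4 weeks (log2 difference 1.12 to 1.52). Col27a1 differed by -1.34, a call lost for 11 of the 20 libraries left out: at 10 weeks Ctrl replicates 1, 4 and 5 and STAM replicates 2 and 5, and at 4 weeks Ctrl replicates 2, 4 and 5 and STAM replicates 1, 2 and 5 (log2 difference -1.62 to -1.07), with quantile normalization (-1.29, limma adjusted p = 0.0656) and when libraries were scaled to total reads (-1.13, limma adjusted p = 0.0672). Col6a5 differed by 3.39, a call lost for 14 of 20: at 10 weeks Ctrl replicates 3, 4 and 5 and STAM replicates 1, 2, 4 and 5, and at 4 weeks Ctrl replicates 2, 3, 4 and 5 and STAM replicates 1, 3 and 4 (log2 difference 2.63 to 4.14) and with quantile normalization (2.99, limma adjusted p = 0.0852).

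**Figure D4:**
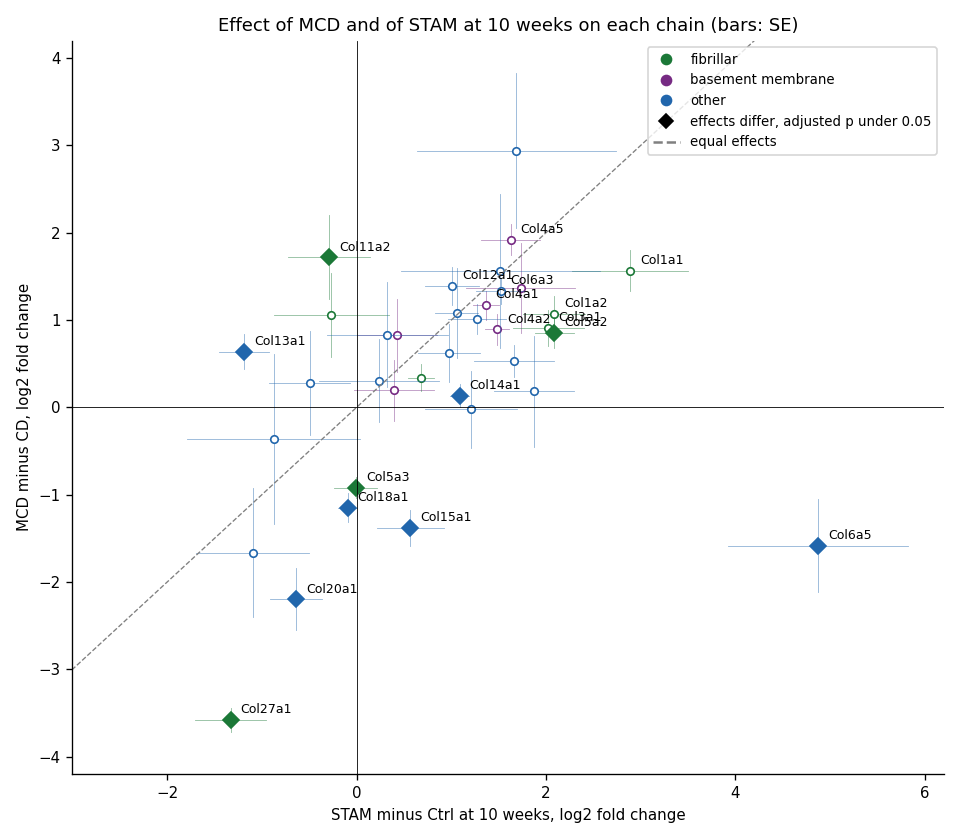
Log2 fold change of each collagen chain gene tested in both models, MCD minus CD on one axis and STAM minus Ctrl at 10 weeks on the other, with SE bars, colours for class and filled diamonds where the effects differed at an adjusted p under 0.05. On the MCD and STAM axes, Col6a5 lies at -1.58 and 4.87, and Col27a1 at -3.58 and -1.33.

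The MCD and 10-week STAM sets share no libraries. Of the collagen genes that rose, 12 did so in both, which is 80% of the 15 in MCD livers and 66.7% of the 18 in STAM livers: Col1a1, Col1a2, Col3a1, Col5a2, Col4a1, Col4a2, Col4a5, Col4a6, Col6a1, Col6a2, Col6a3 and Col12a1. Over all genes, 1847 rose in both, which is 53.4% of the 3462 that rose in MCD livers and 47.7% of the 3876 that rose in STAM livers. Col27a1 fell in both. Subtracting the 10-week STAM effect on each gene from its MCD effect, limma called 2 collagen genes higher and 8 lower, beside 12.9% and 15% of all genes. Col6a5, lower in MCD and higher in STAM livers, differed by -6.45 (limma adjusted p = 0.000518). The size of that difference rests in part on 10-week Ctrl libraries with few or no Col6a5 reads. Col13a1, higher in MCD and lower in STAM livers, differed by 1.82 (limma adjusted p = 0.000606). Both multiplexins differed, Col18a1 by -1.05 and Col15a1 by -1.95 (limma adjusted p = 0.00034 and 0.00463). The other lower genes were Col27a1 (-2.25), Col20a1 (-1.56), Col5a2 (-1.23), Col14a1 (-0.95) and Col5a3 (-0.91). Scaling to total reads moved the median of all genes up by 0.13 and left 2 collagen genes higher and 8 lower. Of the 14986 genes tested 4272 were then called, 62.5% of them higher.

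Col11a2 differed by 2.01 (limma adjusted p = 0.0325), a call lost without any 1 of CD replicate 4, MCD replicates 3 and 4, Ctrl replicates 1 and 3 and STAM replicates 1 and 3 (log2 difference 1.53 to 2.41). None of the 6 type 4 genes was called as different between the models, with intervals of -0.68 to 0.30 for Col4a1 and -1.07 to -0.11 for Col4a2. Col4a2 was called without CD replicate 4 (-0.71), MCD replicate 4 (-0.72), Ctrl replicate 1 (-0.68) or STAM replicate 3 (-0.66). Without Ctrl replicate 1, Col1a1 (-1.79), Col3a1 (-1.38) and Col6a2 (-1.34) were called as well, and without STAM replicate 1, Col1a2 (-1.22) and Col6a2 (-1.37) were. Without CD replicate 4, Col6a6 (-2.12) was called, and without STAM replicate 3, Col1a2 (-1.18).

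Chains of the same molecule or fibril were compared as log2 ratios of their CPM, 6 pairs in 3 sets, by exact two-sided permutation tests over libraries. None of the 18 ratios passed after Benjamini-Hochberg adjustment over the 18 (lowest adjusted p = 0.0735), and 9 had an unadjusted p under 0.05. With 4 against 4 libraries the smallest exact p is 0.0286, and with 5 against 5 it is 0.00794. At these floors no ratio could pass the adjustment by itself, so the lack of a pass says little. The ratio of Col5a1 to Col5a2 averaged 0.06 ± 0.25 in STAM livers at 10 weeks and 1.46 ± 0.34 in Ctrl livers (SD, n = 5 each), a difference of -1.41 (exact permutation p = 0.00794). It averaged 0.34 ± 0.13 in MCD and 0.85 ± 0.26 in CD livers (exact permutation p = 0.0286), and 0.51 ± 0.32 in STAM and 1.15 ± 0.18 in Ctrl livers at 4 weeks (exact permutation p = 0.0159). STAM values at 10 weeks ran from -0.17 to 0.44 and Ctrl values from 1.11 to 2.01. The ratio of Col1a1 to Col1a2 was -1.56 ± 0.33 in MCD and -2.05 ± 0.13 in CD livers (exact permutation p = 0.0286), and -0.83 ± 0.23 in STAM and -1.63 ± 0.82 in Ctrl livers at 10 weeks (exact permutation p = 0.0714). For Col4a1 to Col4a2 the difference was 0.28 in the MCD set and -0.12 in STAM at 10 weeks (exact permutation p = 0.0571 and 0.0476). For Col3a1 to Col1a1 it was -0.65 in the MCD set and -0.38 and -0.86 in STAM at 4 and 10 weeks (exact permutation p = 0.0286, 0.159 and 0.0238). For Col6a3 to Col6a1 it was 0.32, 0.31 and 0.25 in the same order (exact permutation p = 0.0286, 0.0476 and 0.0794). No Col6a1 to Col6a2 ratio had an exact permutation p under 0.05.

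**Figure D5:**
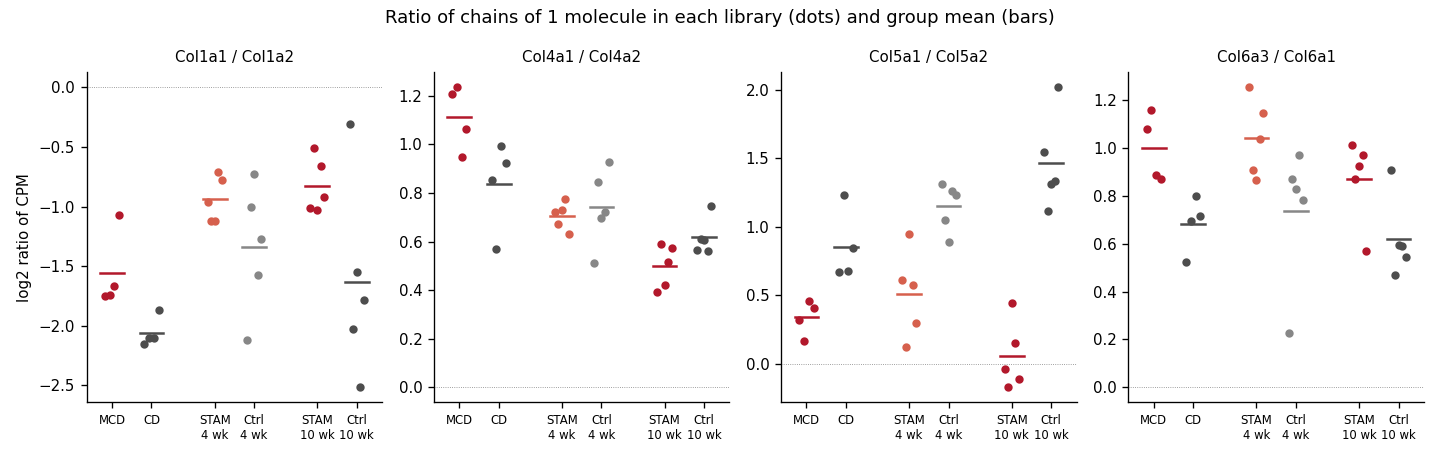
Log2 ratio of CPM of paired collagen chains in every library (dots), with group means as bars, for MCD and CD and for STAM and Ctrl livers at 4 and 10 weeks. The ratio of Col5a1 to Col5a2 lies lower in every STAM than in every Ctrl library at 10 weeks.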

How the data were processed

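Gene-level values came from 3 tables, 1 for each comparison (MCD with CD, STAM with Ctrl at 4 weeks, STAM with Ctrl at 10 weeks), normalized separately, so levels were tested within a table only. The labels' protocols describe liver homogenised in Trizol, column purification and stranded poly(A) libraries read paired-end on Illumina instruments. Per the submitters' processing notes, reads were aligned with STAR 2.4.2a to mm10. The sample columns the authors deposited were read as log2 CPM with a prior of 0.25 reads and libraries scaled within the table, from the values themselves, since no header or label states it. Whole reads could be recovered from 100% of values within 0.05 reads. The sources used here name neither the counter nor its use of strand. The tables' log2 fold changes and p-values, as the authors deposited them, were used only where named.
Starts were given 1 more base than deposited, as a browser shows them. The 44 genes and the gene lists were chosen with earlier results of these data known. Values in every library are given for the main liver chains (Col1a1, Col1a2, Col3a1, Col5a1, Col5a2, Col4a1, Col4a2, Col6a1, Col6a3 and Col18a1) and, in each comparison, for the 3 called genes of each class with the largest change; all called genes are named. Within each table, genes above the 25th percentile of mean log2 CPM were tested (15312 genes) with limma 3.58.1 in R 4.3.3 (trend and robust variance), with Benjamini-Hochberg adjustment and a threshold of 0.05. Differences between effects were tested as contrasts over libraries of 2 tables, over 15022 genes for age and 14986 for model. By the stated design, STAM livers of the 2 ages also differ in time on the high-fat diet. In the age difference, age and time on that diet cannot be told apart. Alternatives were other filters, priors, scalings and variance models, voom on recovered reads, a replicate block, and each library left out. Scripts were tested on simulated data. Intervals on reads cover counting error only.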

Additional observations from a re-analysis of the deposited data

Results flagged for a closer look

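In 140 combinations of a named collagen gene and 1 of the 6 groups of 4 or 5 libraries, with at least 10 mean reads, 3 had a library far from the others on the log2 scale, and chance alone marks about 1 in 20 such groups. Col13a1 was at 3.98 CPM in STAM replicate 5 at 4 weeks, and at 2.39 to 2.58 CPM in the other STAM libraries of that age. Col4a6 was at 1.19 CPM in STAM replicate 5 at 10 weeks, and at 0.261 to 0.364 CPM in the other 4. Col11a2 was at 0.243 CPM in Ctrl replicate 2 at 10 weeks, and at 0.704 to 0.924 CPM in the other 4.

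For 14 genes the STAM effect at 10 weeks differed from that at 4 weeks by limma's test of the difference. On the log2 scale the differences were 1.20 for Col4a1, 1.29 for Col4a2, 1.68 for Col4a5, 2.03 for Col1a2, 1.95 for Col3a1, 0.98 for Col5a1 and 1.75 for Col5a2. They were 1.37 for Col6a1, 1.82 for Col6a2, 1.31 for Col6a3, 3.39 for Col6a5, 1.22 for Col14a1, 1.11 for Col16a1 and -1.34 for Col27a1.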

How the results depend on the processing

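No called collagen gene changed direction under any alternative. Leaving out 1 library at a time gave 12 to 16 collagen genes higher and 5 to 6 lower in MCD livers, 1 to 2 higher in STAM livers at 4 weeks, and 17 to 19 higher and 2 to 3 lower at 10 weeks. For the age difference it gave 11 to 16 higher and 0 to 2 lower, and for the model difference 1 to 2 higher and 8 to 12 lower. At 4 weeks the 1 higher gene became 2 without a filter, 3 with total-read scaling and 2 with voom. Quantile normalization gave 10 higher genes in MCD livers in place of 15 (without Col4a6, Col6a2, Col11a2, Col13a1 and Col22a1) and at 10 weeks 14 in place of 18 (without Col4a6, Col8a1, Col12a1 and Col16a1), and 6 lower in place of 2; in the age difference Col6a5, Col16a1 and Col27a1 lost their calls. Over all 15312 genes tested, quantile normalization called 6233 in the MCD set, 49.8% of them higher, and 6328 at 10 weeks, 45.7% of them higher. For the age difference the 1 lower gene became 2 with a filter at a mean log2 CPM of 0, 0 with total-read scaling and 2 without robust variance. For the model difference the 2 higher genes became 1 with that filter. The replicate numbers did not pair the libraries: correlations of same-numbered deviations ran from -0.12 to 0.0082, and no library matched its own number best. With a replicate block the age difference had 7 collagen genes higher in place of 13 and the model difference 1 in place of 2. Calls over all genes went to 2071 in place of 3011 for the age difference and to 3234 in place of 4178 for the model difference. They went to 5507 in place of 6541 in the MCD set and to 848 in place of 1500 at 4 weeks. The cause of these changes was not tested. In the MCD set Col22a1 had 17 reads in MCD and 1 in CD livers, which left a counting interval of the ratio from 1.84 to 490.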
